A study of Mus musculus with 40 samples.

Results

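Kcnc1, Kcnc2 and Kcnc4 are genes of the Kv3 family, which encode pore subunits of voltage-gated potassium channels. Their read counts were followed in 40 RNA libraries from 2 mouse lines and 4 fractions of brain tissue. The 3 genes, of 41388 in the count tables, were found by their symbols, and all 3 passed the filter on low counts in every fit. The list was chosen from earlier results of these data, under a name that ties the genes to fast-spiking cells, and the values that put each gene on it were not recorded. For this reason every comparison that rests on the TRAP libraries, or on ST between lines (alone or less another fraction), is given for these genes as a description without a p value. Counts of these genes as called there apply the threshold of the withheld test. They do not measure enrichment over the share of all genes. ST against synaptoneurosomes within a line keeps its p values, but the choice may also rest on the ST libraries, so these are descriptive. Comparisons of homogenate and synaptoneurosomes keep their p values too. The choice may rest on those libraries as well, so these p values are also descriptive.

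Every mouse carried a Cre-dependent reporter allele at the Rosa26 locus that tags the ribosomal protein Rpl10a with EGFP, so that ribosomes with bound mRNA can be captured from the cells that express Cre (TRAP). In RBP4-TRAP mice the Cre comes from the transgene Tg(RBP4-cre)KL100Gsat/Mmcd, which labels layer 5 pyramidal neurons of the cortex, and in VGAT-TRAP mice from the Slc32a1 locus (Slc32a1tm2(cre)Lowl/J), which labels all GABAergic neurons and not fast-spiking cells alone. For each line, 5 pools of mice of both sexes were taken at 21 d, and each pool gave 4 fractions, namely whole cell homogenate (WCH), TRAP on the homogenate (TRAP), synaptoneurosomes (SNF, fragments rich in synaptic terminals) and TRAP on the synaptoneurosomes (SynapTRAP, ST). The labels name the tissue as cortex while the methods describe forebrain, so that GABAergic neurons of the striatum can be part of the VGAT-TRAP libraries. The labels name no treatment, and the design compares cell types and compartments.

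Kv3 channels open only at strongly depolarised potentials and close quickly, which shortens the action potential and lets neurons fire at high rates. They assemble from subunits of the same family. In the cortex Kcnc1 and Kcnc2, which encode subunits of sustained currents, are best known from parvalbumin-positive fast-spiking interneurons, whereas Kcnc4 encodes a subunit whose currents inactivate rapidly.

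In the coordinates of the count tables (GRCm38), Kcnc1 (ENSMUSG00000058975) lies on chromosome 7 from 46396497 to 46438375 on the + strand, and its exons add up to 9128 bases. Kcnc2 (ENSMUSG00000035681) lies on chromosome 10 from 112271123 to 112466304 on the + strand, with 6196 bases of exons. Kcnc4 (ENSMUSG00000027895) lies on chromosome 3 from 107438303 to 107458898 on the − strand, with 3013 bases. No annotated gene of GENCODE M21 overlaps these 3 loci. Counts were made per gene, so the splice forms of a gene were not separated.

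The promoter windows of the 3 genes are shown because Kcnc1 and Kcnc2 followed each other across the libraries and Kcnc4 did not. Each holds the 250 bases before and the 50 bases after a RefSeq transcription start (GRCm38.p6), 5′ to 3′ on the strand of the gene, with matches to the GC box GGGCGG on either strand in capitals. The windows are chr7:46396218-46396517 (+) for Kcnc1, chr10:112270873-112271172 (+) for Kcnc2, the one of 4 RefSeq windows whose start is that of the annotated gene, and chr3:107458849-107459148 (−) for Kcnc4.
Kcnc1: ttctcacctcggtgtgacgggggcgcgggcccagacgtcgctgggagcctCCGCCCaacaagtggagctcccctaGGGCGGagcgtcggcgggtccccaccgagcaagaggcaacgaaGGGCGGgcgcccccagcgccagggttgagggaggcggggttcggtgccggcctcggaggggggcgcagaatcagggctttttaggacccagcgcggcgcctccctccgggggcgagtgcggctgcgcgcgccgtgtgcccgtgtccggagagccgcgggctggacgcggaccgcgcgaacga
Kcnc2: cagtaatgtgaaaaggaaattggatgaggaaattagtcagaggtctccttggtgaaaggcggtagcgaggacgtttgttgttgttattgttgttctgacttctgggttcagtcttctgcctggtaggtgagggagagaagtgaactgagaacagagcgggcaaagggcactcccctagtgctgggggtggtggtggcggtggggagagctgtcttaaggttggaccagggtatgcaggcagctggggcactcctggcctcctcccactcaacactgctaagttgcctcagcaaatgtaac
Kcnc4: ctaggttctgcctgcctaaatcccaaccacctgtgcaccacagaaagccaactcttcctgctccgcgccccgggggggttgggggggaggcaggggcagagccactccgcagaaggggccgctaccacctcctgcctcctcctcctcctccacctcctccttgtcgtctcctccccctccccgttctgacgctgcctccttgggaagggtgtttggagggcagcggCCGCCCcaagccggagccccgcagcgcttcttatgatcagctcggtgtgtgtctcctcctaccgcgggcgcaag
The Kcnc1 window held 3 GC boxes, the Kcnc4 window 1 and the Kcnc2 window 0, and 35.7% of all 32841 promoter windows held at least 1. The content of G and C was 74.7% for Kcnc1, 66.7% for Kcnc4 and 53.0% for Kcnc2, against a median of 52.7% over all windows. CG dinucleotides numbered 41, 17 and 5 in the same order, against a median of 7. The TATA box TATAAA, present in 13.6% of windows on either strand, was in none of the 3. The E-box CANNTG was found 1 time in the Kcnc1 window, 2 times in the Kcnc2 window and 1 time in the Kcnc4 window, and 72.3% of windows held it. The sequence TGACG was in the Kcnc1 and Kcnc4 windows, 1 time each, and in 20.8% of windows. Thus the genes that moved together had the richest and the poorest of the 3 windows in G and C. A match describes these letters only.

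Libraries held 14259535 to 22037703 counts, and levels are given as cpm, the counts of a gene scaled to a common total over the genes that remain after mitochondrial, rRNA and tRNA genes were left out, where 1 count is worth 0.0455 to 0.112 cpm. Mitochondrial genes took 11.2 to 19.4% of the counts in SNF except in replicate 3 of both lines, at 40.2% in RBP4 and 41.9% in VGAT, and at most 0.511% in TRAP. Libraries of RBP4 pool 5 held transcripts of the cerebellum: Gabra6, a receptor subunit of granule cells, was at 27.5 cpm in WCH and 11.6 cpm in TRAP, against at most 2.09 cpm in every library of the other pools. Its TRAP library also held 168 cpm of Pvalb, against 29.1 to 56.5 cpm in the other RBP4 TRAP libraries. RBP4 ST replicate 4 held 49.9 cpm of Slc32a1, the vesicular GABA transporter, where its 4 companions held 10.9 to 19.7 cpm. Other markers of GABAergic neurons did not stand out as far. Gad2 (98.8 cpm), Dlx1 (9.68 cpm) and Lhx6 (15.0 cpm) were the highest of the group there. Gad1, at 171 cpm, lay within the group's range of 118 to 201 cpm, and Pvalb, at 22.8 cpm, was the lowest. The log2 differences of the 3 genes that rest on RBP4 pool 5 or on RBP4 ST replicate 4 are therefore also given without them. Of the fast-spiking markers, Pvalb, Syt2 and Erbb4 were detected in every library, and their sum ranged from 1655 to 2458 cpm in VGAT TRAP and from 42.4 to 195 cpm in RBP4 TRAP. Markers of striatal projection neurons summed to 1344 to 2239 cpm in VGAT TRAP and to 80.9 to 171 cpm in RBP4 TRAP, so the VGAT TRAP libraries represent more than fast-spiking cells.

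In homogenate, the levels of the 3 genes overlapped between the lines. Kcnc1 in WCH was 74.1, 61.7, 68.3, 67.4 and 58.9 cpm in RBP4 replicates 1 to 5, and 86.7, 67.3, 67.4, 67.6 and 73.3 cpm in VGAT. Kcnc2 was 80.9, 137, 116, 101 and 82.1 cpm in RBP4 and 104, 114, 118, 126 and 135 cpm in VGAT. Kcnc4 was 39.7, 42.6, 39.6, 57.5 and 36.1 cpm in RBP4 and 53.9, 55.4, 45.3, 49.5 and 46.7 cpm in VGAT. The ranges of the lines overlapped for each gene. VGAT over RBP4 in WCH, the log2 differences were 0.13 (SE 0.18), 0.21 (SE 0.17) and 0.22 (SE 0.18), with 95% intervals of -0.23 to 0.49, -0.15 to 0.56 and -0.14 to 0.58. In the quasi-likelihood test of edgeR, with p adjusted over all genes by Benjamini-Hochberg and a threshold of 0.05, 0 of the 3 passed, where 0.0118% of 16898 genes did (2 genes, 426 at an unadjusted p under 0.05, and 4 with DESeq2). Without RBP4 pool 5 the differences were 0.094, 0.13 and 0.16.

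In TRAP, the lines stood far apart, and Kcnc4 went the other way from Kcnc1 and Kcnc2. Kcnc1 was at 25.3, 19.4, 26.6, 19.7 and 30.0 cpm in RBP4 TRAP and at 188, 183, 189.9, 216 and 178 cpm in VGAT TRAP. No library of one line came near those of the other. VGAT over RBP4, the log2 difference was 2.98 (SE 0.19), or 7.89-fold. Kcnc2 was at 23.8, 24.1, 24.1, 23.7 and 28.3 cpm in RBP4 TRAP and at 212, 253, 249, 327 and 251 cpm in VGAT TRAP. Its difference between lines was 3.38 (SE 0.19) on the log2 scale, or 10.4-fold. Kcnc4 was at 41.4, 45.7, 53, 52.7 and 39.2 cpm in RBP4 TRAP and at 22.5, 19.9, 33.5, 26.9 and 20.5 cpm in VGAT TRAP. All RBP4 libraries lay above all VGAT libraries, with a log2 difference of -0.91 (SE 0.18), VGAT over RBP4. Thus 2 of the 3 genes were called higher in VGAT TRAP, where 15.1% of all genes were, and 1 was called lower, where 12.9% were. Since the list may have been chosen from these TRAP values, the counts are a description and do not measure enrichment.

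Set against the homogenate they came from, Kcnc1 and Kcnc2 were depleted in RBP4 TRAP and enriched in VGAT TRAP. Kcnc1 was -1.45 (SE 0.23) on the log2 scale in RBP4 and 1.4 (SE 0.12) in VGAT, TRAP over WCH. Kcnc2 was -2.06 (SE 0.19) in RBP4 and 1.12 (SE 0.19) in VGAT. Kcnc4 was 0.11 (SE 0.22) in RBP4, with overlapping ranges, and -1.03 (SE 0.19) in VGAT, with TRAP below WCH in 5 of 5 pools. The median of all genes was -0.34 and -0.31 in these comparisons, so that Kcnc4 in RBP4 TRAP lay above the median gene. Under TMM scaling, where the medians were -0.05 and -0.06, Kcnc4 was at 0.40 in RBP4 and -0.78 in VGAT. In RBP4, 2 of the 3 genes were called lower, where 31.5% of all genes were. In VGAT, 2 were called higher and 1 lower, where 21.0% and 41.8% of genes were. These counts rest on TRAP values too and are a description. Without RBP4 pool 5, the RBP4 values of Kcnc1, Kcnc2 and Kcnc4 were -1.58, -2.18 and 0.10, and the differences between lines in TRAP 3.07, 3.43 and -0.97. In such pooled tissue, fewer cells of a type and less RNA per cell cannot be told apart.

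**Figure D1:**
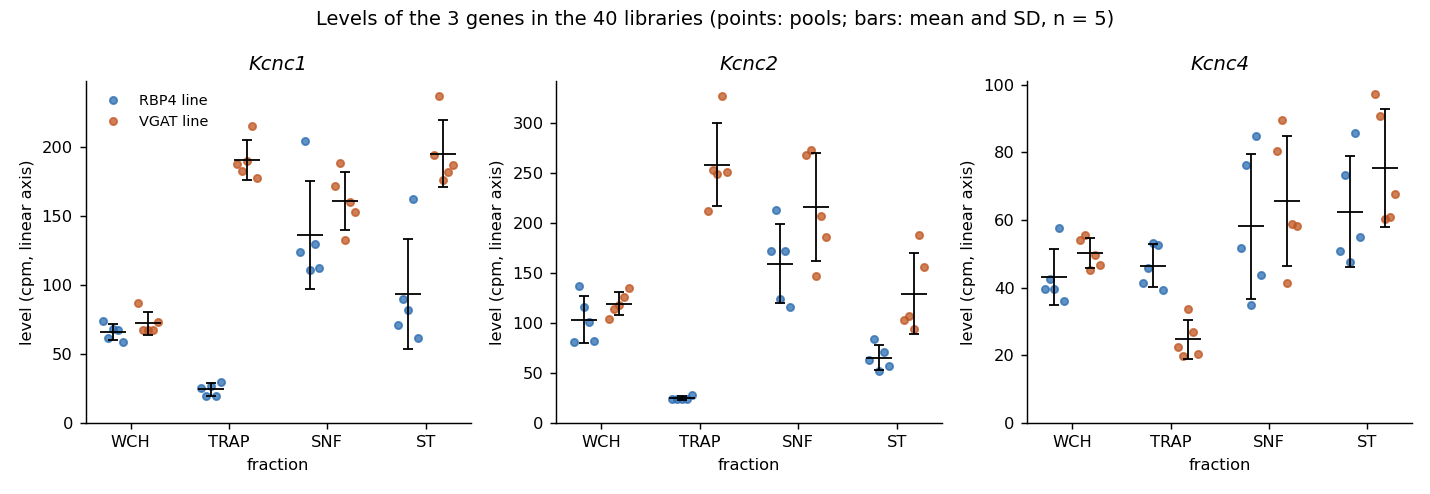
Level (cpm, linear axis) of each of the 3 genes in the 40 libraries by fraction, with 1 point per pool, RBP4 in blue and VGAT in orange, and black bars for the mean and SD of 5 pools. Kcnc1 and Kcnc2 differ between lines most in TRAP, where Kcnc1 averages 24.2 cpm in RBP4 and 191 cpm in VGAT, while WCH and SNF overlap.

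Synaptoneurosomes held more Kcnc1 and Kcnc2 than homogenate, in both lines. Kcnc1 in SNF was 124, 205, 111, 129.8 and 113 cpm in RBP4 and 172, 189, 133, 160.2 and 153 cpm in VGAT. Every SNF library lay above every WCH library of its line. The log2 difference, SNF over WCH, was 1.05 (SE 0.23) in RBP4 (edgeR adjusted p = 0.000899) and 1.16 (SE 0.12) in VGAT (edgeR adjusted p = 1.31e-07). The p values of SNF over WCH are descriptive, since the choice of the genes may also rest on the SNF and WCH libraries. Kcnc2 in SNF was 172, 213, 124, 172 and 116 cpm in RBP4 and 268, 273, 147, 208 and 186 cpm in VGAT. It was higher in SNF than in WCH in 5 of 5 pools of each line, with differences of 0.62 (SE 0.19) in RBP4 (edgeR adjusted p = 0.00885) and 0.86 (SE 0.19) in VGAT (edgeR adjusted p = 0.00042). Without RBP4 pool 5 the RBP4 differences of Kcnc1, Kcnc2 and Kcnc4 were 1.07, 0.65 and 0.46. Without replicate 3, whose SNF libraries were high in mitochondrial counts, they were 1.13, 0.74 and 0.54 in RBP4 and 1.19, 0.96 and 0.48 in VGAT. Without RBP4 replicate 1 the call of Kcnc2 in RBP4 was lost (0.52, edgeR adjusted p = 0.0758).

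Kcnc4 in SNF was 51.6, 76.1, 34.7, 84.8 and 43.6 cpm in RBP4 and 80.3, 89.6, 41.3, 58.6 and 58.2 cpm in VGAT. These groups were wide and overlapped WCH, and SNF was above WCH in 4 of 5 pools of each line. The differences were 0.43 (SE 0.22) in RBP4 (edgeR adjusted p = 0.11) and 0.39 (SE 0.19) in VGAT (edgeR adjusted p = 0.0743), and neither passed. With the pool as a block, Kcnc4 passed in RBP4 (0.39, edgeR adjusted p = 0.0487) and not in VGAT, and without VGAT replicate 3 it passed in VGAT (0.48, edgeR adjusted p = 0.0165). Thus 2 of the 3 genes were called higher in SNF in each line, where 13.4% of all genes were in RBP4 and 19.3% in VGAT. The median of all genes was -0.50 in RBP4 and -0.52 in VGAT, and relative to it Kcnc4 stood 0.93 and 0.91 higher. Under TMM scaling, where these medians were both -0.17, Kcnc4 passed in both lines, at 0.79 (edgeR adjusted p = 0.00965) and 0.75 (edgeR adjusted p = 0.00263). Astrocyte markers moved the same way, from sums of 962 to 2053 cpm in RBP4 WCH to 2520.1 to 6581 cpm in RBP4 SNF, and their part in these results was not tested.

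SNF holds the RNA of all terminals and of what comes down with them, tagged or not, and the ranges of the lines overlapped there. VGAT over RBP4 in SNF, the log2 differences were 0.24 (SE 0.18) for Kcnc1, 0.44 (SE 0.19) for Kcnc2 and 0.17 (SE 0.21) for Kcnc4, with 95% intervals of -0.12 to 0.61, 0.060 to 0.82 and -0.25 to 0.60. By edgeR, 0 of the 3 passed, where 0.0169% of genes did (3 genes, and 818 at an unadjusted p under 0.05, and 5 with DESeq2). The SNF over WCH difference itself was not found to differ between lines either. Here 0 of the 3 and 0% of all genes passed in edgeR, with 94 genes at an unadjusted p under 0.05 and 0 genes in DESeq2. The 95% intervals of that difference were -0.41 to 0.62 for Kcnc1, -0.30 to 0.77 for Kcnc2 and -0.65 to 0.56 for Kcnc4. A 2-fold difference lies outside each of them. In simulated data this comparison recovered 58 of 200 genes changed 2-fold. SNF over WCH within a line recovered 167 in RBP4 and 173 in VGAT. The simulation gave every gene the same spread. Among all genes, a 2-fold difference between lines in this step could therefore fail to pass. Without RBP4 pool 5 the SNF differences between lines were 0.18, 0.34 and 0.087, and those of SNF over WCH between lines 0.086, 0.21 and -0.074.

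Capture of tagged ribosomes from the synaptoneurosomes gave less Kcnc2 than the synaptoneurosomes themselves. Kcnc2 in ST was 62.7, 83.9, 51.9, 70.5 and 56.5 cpm in RBP4 and 102, 107, 94.4, 188 and 156 cpm in VGAT. ST over SNF, it fell in 5 of 5 pools of each line, by a log2 difference of -1.29 (SE 0.19) in RBP4 (edgeR adjusted p = 0.000115) and -0.74 (SE 0.19) in VGAT (edgeR adjusted p = 0.00468). The p values of ST over SNF are descriptive, since the choice of the genes may also rest on the ST libraries. The VGAT call was lost without VGAT replicate 1 (-0.58, edgeR adjusted p = 0.0551) or replicate 2 (-0.58, edgeR adjusted p = 0.0686). It was also lost with mitochondrial, rRNA and tRNA genes kept in the totals (-0.53, edgeR adjusted p = 0.0799), where Kcnc1 passed in the other direction (0.50, edgeR adjusted p = 0.0214). Thus 1 of the 3 genes was called lower in each line, where 5.46% of all genes were in RBP4 and 11.2% in VGAT. The 931 genes behind the RBP4 share became 258 without RBP4 replicate 1 and 342 without replicate 4. With mitochondrial, rRNA and tRNA genes kept in the totals, 1757 genes were higher and 317 lower in RBP4, against 962 and 931.

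Kcnc1 in ST was 71, 89.7, 81.9, 163 and 62 cpm in RBP4, with replicate 4 the highest, and 194, 237, 177, 182 and 187 cpm in VGAT. ST over SNF, its difference was -0.55 (SE 0.22) in RBP4 (edgeR adjusted p = 0.121) and 0.28 (SE 0.12) in VGAT (edgeR adjusted p = 0.0816). Neither passed, but without RBP4 ST replicate 4, the library with the high Slc32a1, Kcnc1 was lower in RBP4 ST (-0.84, edgeR adjusted p = 0.00886). That library was also the highest of its group in Kcnc1, and Slc32a1 followed Kcnc1 across the libraries (r = 0.955). Leaving it out therefore had to lower Kcnc1 in RBP4 ST, and the p value is no support. Kcnc4 in ST was 50.8, 73.3, 47.5, 85.8 and 54.9 cpm in RBP4 and 97.1, 90.8, 60.4, 60.9 and 67.6 cpm in VGAT. Its ST and SNF ranges overlapped, with differences of 0.10 (SE 0.22) in RBP4 (95% interval -0.36 to 0.56) and 0.20 (SE 0.19) in VGAT (-0.19 to 0.59). The RBP4 differences of Kcnc1, Kcnc2 and Kcnc4 were -0.84, -1.32 and -0.040 without RBP4 ST replicate 4 and -0.49, -1.34 and 0.057 without RBP4 pool 5. The difference ST over SNF, compared between lines, was 0.82 (SE 0.25) for Kcnc1 and 0.55 (SE 0.27) for Kcnc2, VGAT over RBP4. It holds the ST difference between lines and is a description for the 3 genes, which were at 1.12, 0.58 and 0.24 without RBP4 ST replicate 4 and at 0.77, 0.60 and 0.14 without RBP4 pool 5. Of all genes, 0% passed in edgeR, with 502 at an unadjusted p under 0.05, 0 in DESeq2 and 4 in edgeR's likelihood ratio test. Oligodendrocyte markers summed to 31259 to 43784 cpm in RBP4 ST and 31861 to 53924 cpm in VGAT ST, against 11796 to 18415 cpm and 14472 to 17640.1 cpm in SNF, and their part in the ST values was not tested.

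Between lines, ST of Kcnc1 and Kcnc2 lay higher in VGAT, with no overlap of the libraries, but the gap was smaller than in TRAP. The log2 differences in ST, VGAT over RBP4, were 1.06 (SE 0.18) for Kcnc1, 0.99 (SE 0.18) for Kcnc2 and 0.27 (SE 0.18) for Kcnc4, whose ranges overlapped. These values describe the list, and 2 of the 3 genes were called higher, where 0.266% of all genes were. The 45 genes behind that share became 6, 16, 25, 88 and 138 without VGAT replicate 5, VGAT replicate 4 and RBP4 replicates 3, 2 and 4 in turn, and 162 without RBP4 ST replicate 4. Without VGAT replicate 5 the count was 1, and Kcnc2 was at 0.92. Without RBP4 ST replicate 4 the 3 values were 1.36, 1.02 and 0.41, and without RBP4 pool 5 they were 0.95, 0.94 and 0.23.

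**Figure D2:**
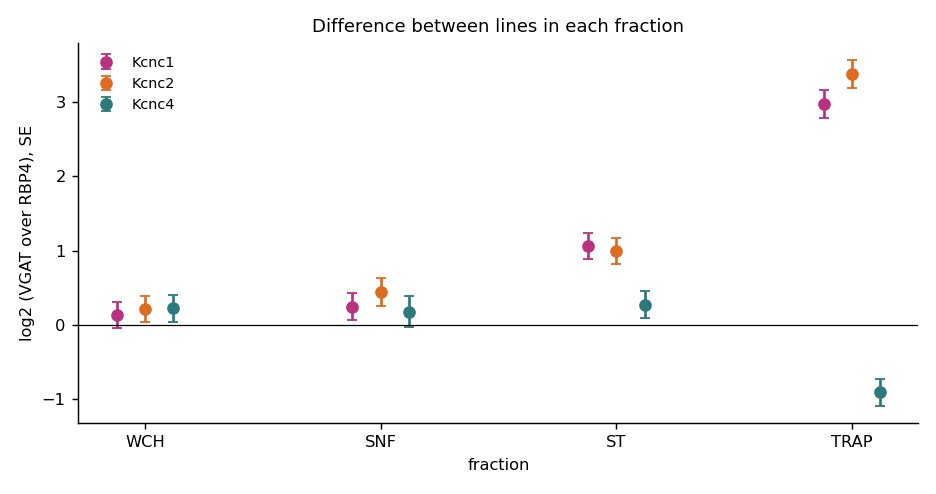
Log2 difference between lines (VGAT over RBP4, with its SE from the fit) of the 3 genes in each fraction, with fractions on the horizontal axis. The 3 genes lie closest together in WCH and SNF and spread in TRAP, from -0.91 for Kcnc4 to 3.38 for Kcnc2.

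Within a line, the step from the whole-cell ribosomes (TRAP) to those captured from synaptoneurosomes (ST) took different directions for the 3 genes. Kcnc1 was higher in ST than in TRAP in RBP4, by a log2 difference of 1.95 (SE 0.23), and in VGAT it was at 0.034 (SE 0.12) with a 95% interval of -0.21 to 0.27. Kcnc2 was higher in ST in RBP4, by 1.39 (SE 0.19), and lower in VGAT, at -1.0 (SE 0.19), with no overlap of ST and TRAP in either line. Kcnc4 was at 0.43 (SE 0.22) in RBP4, with overlapping ranges, and at 1.61 (SE 0.19) in VGAT, where every ST library lay above every TRAP library. In RBP4, 2 of the 3 genes were called higher in ST, where 26.0% of all genes were. In VGAT, 1 was called higher and 1 lower, where 37.5% and 34.0% were. These counts use TRAP and ST values and are a description. Without RBP4 ST replicate 4 the RBP4 values of Kcnc1, Kcnc2 and Kcnc4 were 1.65, 1.36 and 0.29, and without RBP4 pool 5 they were 2.16, 1.49 and 0.42. With the pool as a block, 3 were called in RBP4, Kcnc4 being at 0.39. The median sums of 2 marker lists, each meant for cells a line does not tag, were also higher in ST. In RBP4, GABAergic markers had median sums of 116 cpm in TRAP and 315 cpm in ST, with overlapping ranges. In VGAT, layer 5 markers had median sums of 207 and 782 cpm. By means, Slc17a7 went from 58.5 to 570 cpm, Fezf2 from 7.68 to 17.1 cpm and Etv1 from 29.1 to 47.0 cpm. Bcl11b went the other way, from 133 to 77.5 cpm. It was also higher in VGAT TRAP than in RBP4 TRAP (63.2 cpm), so this sum is not one of untagged cells alone. GABAergic sums overlapped between lines in ST, at 214 to 344 cpm in RBP4 and 272 to 720 cpm in VGAT, but not in TRAP. The part of RNA from untagged cells in the ST values was not tested.

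The ST over TRAP step differed between lines by -1.92 (SE 0.25) for Kcnc1, -2.39 (SE 0.25) for Kcnc2 and 1.18 (SE 0.25) for Kcnc4, VGAT over RBP4. In this comparison 2 of the 3 genes were called lower, where 5.02% of all genes were, and 1 higher, where 5.79% were. It is the ST difference between lines less the TRAP difference, so it shares the values the list may have been chosen from, and is given as a description. Without RBP4 ST replicate 4 the values were -1.62, -2.36 and 1.33, and without RBP4 pool 5 -2.12, -2.49 and 1.2. The 3 fast-spiking markers did not move as one from TRAP to ST in VGAT. Pvalb was at 1517 to 2339.9 cpm in TRAP and at 51.5 to 187 cpm in ST, whereas Syt2 was at 61.5 to 82 and 49.2 to 83.7 cpm, and Erbb4 at 48.6 to 66 and 37.6 to 68.9 cpm, with overlapping ranges. Over the same libraries, Kcnc1 ranged from 178 to 216 cpm in TRAP and from 177 to 237 cpm in ST.

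**Figure D3:**
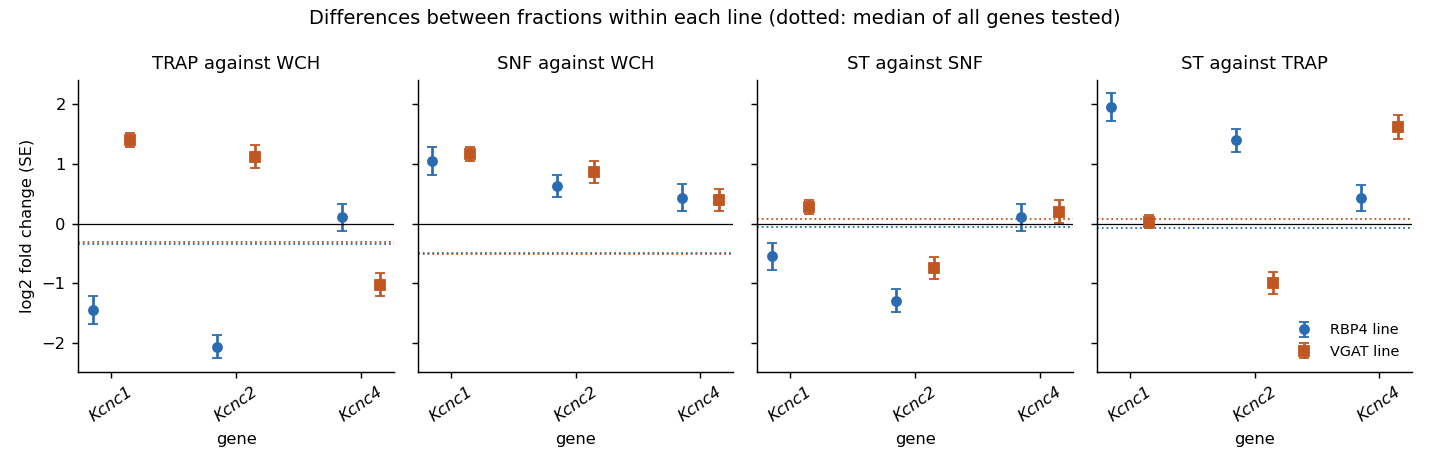
Log2 fold change with its SE for the 3 genes in 4 comparisons of fractions within each line, RBP4 as blue circles and VGAT as orange squares, and the median of all genes tested as dotted lines. SNF over WCH is above 0 for all 3 genes in both lines (Kcnc4 did not pass the test), whereas ST over TRAP in VGAT runs from -1.0 for Kcnc2 to 1.61 for Kcnc4.

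Ordered by the mean of the 8 groups, Kcnc1 ran from VGAT ST (195 ± 24.3 cpm, SD, n = 5) and VGAT TRAP (191 ± 14.7 cpm, SD, n = 5) through VGAT SNF, RBP4 SNF, RBP4 ST, VGAT WCH and RBP4 WCH down to RBP4 TRAP (24.2 ± 4.59 cpm, SD, n = 5). Only the last step separated neighbours with no overlap. Kcnc2 ran from VGAT TRAP (259 ± 41.9 cpm, SD, n = 5) through VGAT SNF, RBP4 SNF, VGAT ST, VGAT WCH, RBP4 WCH and RBP4 ST to RBP4 TRAP (24.8 ± 1.96 cpm, SD, n = 5). Here too the ranges of neighbouring groups overlapped except at the last step. Kcnc4 spanned least of the 3, from VGAT ST (75.4 ± 17.4 cpm, SD, n = 5) through VGAT SNF, RBP4 ST, RBP4 SNF, VGAT WCH, RBP4 TRAP and RBP4 WCH to VGAT TRAP (24.7 ± 5.69 cpm, SD, n = 5). Only VGAT TRAP was set apart. So the lowest group was RBP4 TRAP for Kcnc1 and Kcnc2, and VGAT TRAP for Kcnc4.

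The libraries were made with 3′ priming, so counts need not grow with the length of a transcript, and shares are given with and without division by length. Per length of exon, the 3 genes summed to 22 ± 1.78 cpm per kb (SD, n = 5) in RBP4 TRAP and 70.8 ± 8.84 cpm per kb (SD, n = 5) in VGAT TRAP. Kcnc4 held 69.6% ± 4.79 (SD, n = 5) of that sum in RBP4 TRAP and Kcnc2 18.3%. In VGAT TRAP the order turned, with Kcnc2 at 58.7% ± 3.16 (SD, n = 5), Kcnc1 at 29.7% and Kcnc4 at 11.6%. By cpm not divided by length, Kcnc4 held 48.6%, Kcnc2 26.1% and Kcnc1 25.3% in RBP4 TRAP, and 5.21%, 54.3% and 40.4% in VGAT TRAP, so that Kcnc4 in RBP4 and Kcnc2 in VGAT came first on both scales. In ST the make-up of the lines was closer. Kcnc4 held 50.0% in RBP4 and 37.1% in VGAT, Kcnc1 held 24.2% and 31.9%, and Kcnc2 held 25.9% and 31%. In WCH, Kcnc2 was first in both lines with 43.4% and 43.9%, before Kcnc4 with 37.4% and 38%. By cpm Kcnc2 was still first in WCH, with 48.2% and 49.3%, but Kcnc1 came second with 31.5% and 30.0%.

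From WCH to SNF, in VGAT, the share per length of Kcnc1 rose and that of Kcnc4 fell. Kcnc1 rose by 6.17 percentage points (2-sided exact permutation test, Benjamini-Hochberg adjusted over 12 tests, p = 0.0272), and the difference of Kcnc4 was -9.03 points (same exact test, adjusted p = 0.019). The raw p values of this exact test were 0.0159 and 0.00794. The 12 tests include the ST over TRAP shares, which use libraries the choice may rest on. The adjusted p values depend on those shares and are descriptive. In RBP4 the differences were 5.96 points for Kcnc1 (same exact test, adjusted p = 0.0595) and -5.75 points for Kcnc4 (same exact test, adjusted p = 0.148), and neither passed. The share of Kcnc2 differed by -0.214 points in RBP4 and 2.86 points in VGAT, and neither passed. The sum over the 3 genes was chosen after the results were known. The shares have a fixed total, so a rise of one and a fall of another are not separate evidence. The level of Kcnc4 itself was not lower in VGAT SNF, at 0.39 (log2, SNF over WCH). Whether the lines differ in these steps was not tested. With 5 libraries against 5 the smallest raw p of this test is 0.00794, and with 5 pairs 0.0625, so that paired by pool no share could pass. With 1 replicate left out, the VGAT differences ranged from 5.18 to 7.76 points for Kcnc1 and from -10.0 to -8.68 points for Kcnc4, and with 4 libraries against 4 the smallest raw p that the exact test can give is 0.0286, so that a call lost there says nothing about stability.

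**Figure D4:**
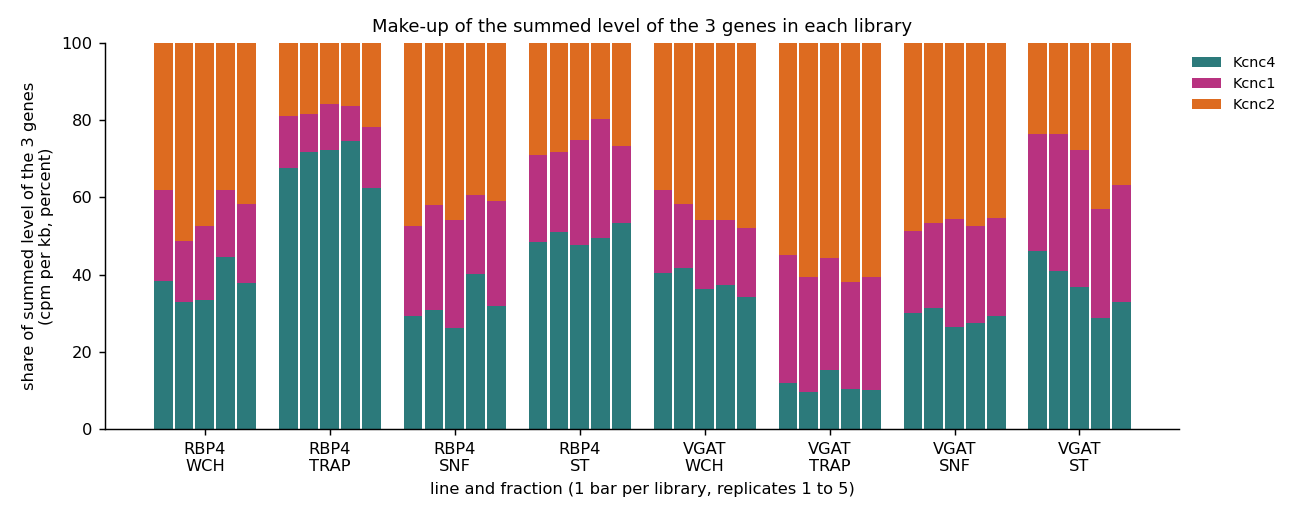
Share (percent) of the summed level in cpm per kb held by each of the 3 genes, with 1 stacked bar per library and 5 libraries per line and fraction. Kcnc4 takes the larger part of RBP4 TRAP (69.6% on average) and Kcnc2 that of VGAT TRAP (58.7%), and the shares of Kcnc2 and Kcnc4 in ST lie between these extremes.

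Lists of related genes were drawn up with earlier results of these data known, so their counts and p values here and below are descriptive. Of 18 other pore genes of voltage-gated potassium channels, 5 were higher in VGAT TRAP and 7 lower, where 15.1% and 12.9% of all genes were, and the median difference was -0.04, against 0.01 for all genes. The 2 largest were Kcna5, a Kv1 family subunit, at 2.2 (SE 0.38, edgeR adjusted p = 4.51e-05), and Kcna3, of the same family, at 1.17 (SE 0.41, edgeR adjusted p = 0.0317). Their levels were low, with means of 11.5 and 9.86 cpm in VGAT TRAP. The 2 lowest were Kcnh3, an ether-à-go-go family channel gene, at -0.88 (SE 0.22, edgeR adjusted p = 0.00308), and its relative Kcnh7 at -0.80 (SE 0.20, edgeR adjusted p = 0.00308). Kcnc1 and Kcnc2 lay above all 18 and Kcnc4 below all 18, which describes the genes as listed. Kcnc4, at -0.91 (SE 0.18), was below Kcnh3 and Kcnh7 by less than their SE, so its place as the lowest is not resolved. In SNF over WCH, 13 of the 18 rose in RBP4 and 16 in VGAT, and 0 fell in either. Of all genes, 13.4% rose and 36.1% fell in RBP4, and 19.3% rose and 45.2% fell in VGAT. The list medians were 0.70 and 0.80. Between lines in ST, 0 of the 18 passed in edgeR.

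**Figure D5:**
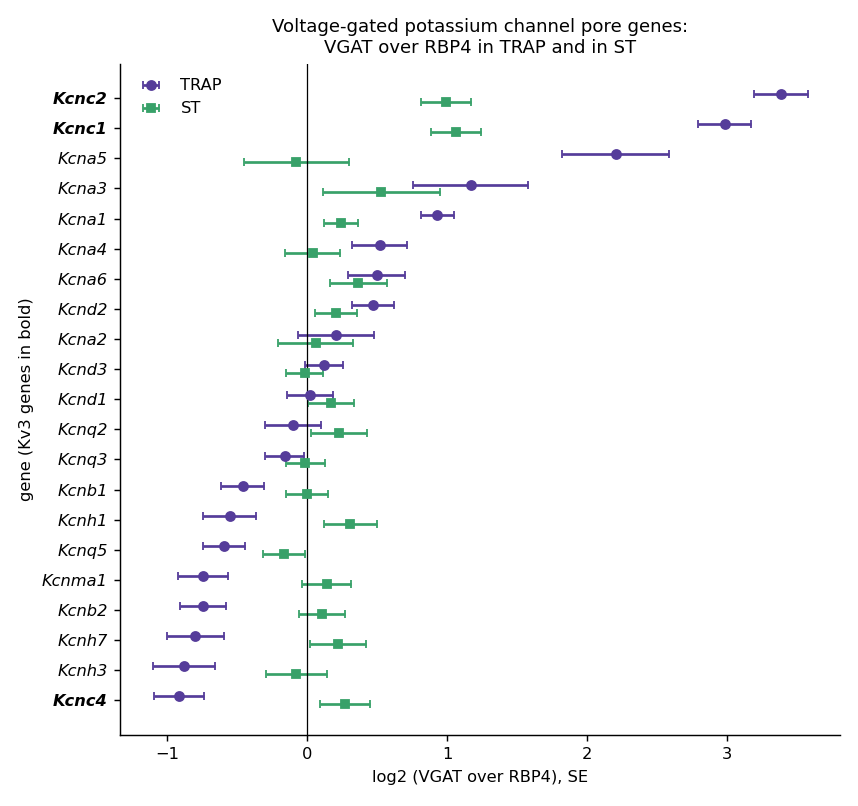
Log2 difference between lines (VGAT over RBP4, with SE) of the 3 Kv3 genes (bold) and 18 other potassium channel pore genes, in TRAP (purple circles) and ST (green squares), sorted by TRAP. In TRAP the genes span from -0.91 (Kcnc4) to 3.38 (Kcnc2), and in ST they draw together, with Kcnc1 and Kcnc2 the 2 furthest to the right.

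Of 11 genes for accessory subunits of these channels, 10 were tested in TRAP between lines, and 4 were higher and 4 lower in VGAT, where 15.1% and 12.9% of all genes were. Kcnip1, a calcium-binding subunit of Kv4 channels, was at 3.86 (SE 0.35, edgeR adjusted p = 3.92e-10), with means of 295 cpm in VGAT and 20.4 cpm in RBP4. Kcnip3, a relative, was lower in VGAT, at -1.8 (SE 0.22, edgeR adjusted p = 1.83e-07). Kcne4 and Kcne3, single-pass subunits, were at 3.43 (SE 0.57, edgeR adjusted p = 2.49e-05) and -2.66 (SE 0.67, edgeR adjusted p = 0.00275), both under 1 cpm on average in each line. In ST between lines, 0 of the 10 passed in edgeR. Kcnip1 there was at 0.46 (SE 0.31, edgeR adjusted p = 0.598), with means of 29.8 and 21.7 cpm. Kcnip1 differed between lines in the ST over TRAP step by -3.4 (SE 0.45, edgeR adjusted p = 3.54e-06).

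Of 22 genes of fast-spiking cells and of axonal excitability, 16 were higher and 1 was lower in VGAT TRAP, where 15.1% and 12.9% of all genes were, with a median difference of 1.9. The list was drawn up with earlier results of these data known, so its counts and p values are descriptive and do not measure enrichment. Lhx6, a transcription factor of interneurons from the medial ganglionic eminence, was at 4.92 (SE 0.28, edgeR adjusted p = 2.72e-14). Nkx2-1, a transcription factor of the same lineage, had means of 2.19 cpm in VGAT TRAP and 0.0195 cpm in RBP4 TRAP. Nefm, a neurofilament, was lower in VGAT, at -0.52 (SE 0.20, edgeR adjusted p = 0.0487), and the smallest rise that passed was that of Nefh, another neurofilament, at 0.66 (SE 0.15, edgeR adjusted p = 0.000795). In ST between lines 2 of the 22 passed, where 0.266% of all genes were higher, namely Syt2, a calcium sensor of release, at 1.03 (SE 0.21, edgeR adjusted p = 0.0237), and Cox6a2, a subunit of the respiratory chain, at 1.26 (SE 0.27, edgeR adjusted p = 0.0265), and they are named after their values were seen. The ST over TRAP step differed between lines for 15 of the 22, all lower, where 5.02% of all genes were, with a median of -1.52 against 0.04 for all genes. Lhx6 was at -4.3 (SE 0.36) there, Kcnc2 at -2.39 and Kcnc1 at -1.92.

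Across the 40 libraries, the log2 levels of Kcnc1 and Kcnc2 were correlated with r = 0.854, those of Kcnc1 and Kcnc4 with r = 0.123, and those of Kcnc2 and Kcnc4 with r = -0.0961. These values describe libraries that share lines, fractions and pools. Among 10755 genes whose mean reached 5 cpm, the 5 most like Kcnc1 were Elfn1 (r = 0.962), Slc32a1 (0.955), Sema4g (0.942), Syt2 (0.941) and Fndc5 (0.938). Elfn1 encodes a postsynaptic protein of interneurons and Slc32a1 the vesicular GABA transporter. Those most like Kcnc2 were Gpr176 (r = 0.951), Gjd2 (0.945), Nxph1 (0.944), Pcdh18 (0.941) and Kit (0.940), of which Gjd2 encodes the gap junction protein of coupled interneurons and Nxph1 a neurexin ligand. Those most like Kcnc4 were Adora1 (r = 0.925), the adenosine A1 receptor gene, Zdhhc8 (0.915), Sstr3 (0.909), Tmem121b (0.893) and Plxnd1 (0.875). The lists of the 3 genes shared no name. All 5 genes nearest to Kcnc4 had a lower mean in VGAT TRAP than in RBP4 TRAP, from 54.4 against 104.5 cpm for Adora1 to 3.11 against 9.49 cpm for Sstr3. They were picked by correlation over the same 40 libraries, TRAP included, so this likeness is not separate evidence.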

How the data were processed

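RNA-seq files of 40 libraries (2 lines, 4 fractions, 5 pools) were used, grouped by their labels. The authors aligned reads of 50 bases with STAR 2.0.4b and counted unique reads per gene with featureCounts 1.4.5, and the deposited counts are whole numbers with no normalization. The deposited CPM and RPKM values, which the authors made from these counts, served only as a check (largest differences 4.07e-10 and 2.76e-10). The library kit does not mark strand. The members and gene lists were chosen with earlier results of these data known, so counts and p values of the lists are descriptive.

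Here, 390 mitochondrial, rRNA and tRNA genes were left out, leaving 8950847 to 21976631 counts per library, which set the library sizes without a further factor. Genes that reached 0.5 cpm in 3 or more libraries were tested with edgeR 4.0.16 (R 4.3.3; glmQLFit, glmQLFTest) on the group, with Benjamini-Hochberg adjustment over all genes tested and a threshold of 0.05. The 20 libraries of a line entered comparisons of fractions, 30 (WCH, TRAP and ST) those between lines, and all 40 those with SNF between lines. The comparisons of SNF over WCH and of ST over SNF between lines were added after the data were seen. ST over TRAP and its difference between lines were planned as tests, but are given without p for the 3 genes, as is ST over SNF between lines, since they use the TRAP and ST libraries the choice may rest on. ST over SNF within a line uses the same ST libraries, so its p values for the 3 genes are descriptive. The choice may also rest on SNF and WCH libraries, so p values of SNF over WCH for the 3 genes are descriptive too. The libraries were made with 3′ priming, per the study, so counts need not scale with exon length. Scripts were tested on simulated data. Shares of the summed level per kb of the 3 genes used exact permutation tests, with the sum over these 3 genes chosen after the results were known. Other genes planned for description, 1 of them in the list of fast-spiking cells, are not reported here. Alternatives were the likelihood ratio test, DESeq2 1.42.0, TMM, DESeq2's size factors, no gene left out, other filters, other sets of libraries, the pool as a block, and leaving out each pool or RBP4 ST replicate 4.

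The 4 fractions of a pool carry 1 replicate number, so numbers pair libraries within a line. Same-numbered deviations correlated with a mean of 0.220 to 0.389 in RBP4 and 0.304 to 0.472 in VGAT, except ST with TRAP (-0.00899 and 0.0602). No source ties equal numbers of the 2 lines to a shared litter, batch or day. Their deviations correlated with means of 0.0434 to 0.217 between lines (highest single pair 0.748, in SNF), and in no fraction did every pair exceed 0.1, so numbers were not used to pair the lines. Whether pools held separate litters is not given, so p values measure the spread between these pools.

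The text names the 3 genes, the 2 highest and 2 lowest called differences in TRAP between lines of each list, and the 5 genes most correlated with each member. Promoter windows came from RefSeq, and all 3 genes matched. Tables were handled in pandas 2.3.3 (Python 3.11.15), exact tests run in scipy 1.17.1 on arrays of numpy 2.4.6, and plots drawn with matplotlib 3.10.9.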

Additional observations from a re-analysis of the deposited data

Results flagged for a closer look

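Of 24 sets of 5 libraries (3 genes by 8 groups), 4 held a library far from the others by Dixon's ratio (gap over range above 0.71), where chance gives about 1 in 20. Kcnc1 was 205 cpm in RBP4 SNF replicate 2 (204.87), 163 cpm in RBP4 ST replicate 4 and 237 cpm in VGAT ST replicate 2. Kcnc2 was 28.3 cpm in RBP4 TRAP replicate 5, whose other libraries lay within 23.7 to 24.1 cpm. Of these, RBP4 ST replicate 4 is the library with 49.9 cpm of Slc32a1, and RBP4 TRAP replicate 5 the one of the pool with cerebellar transcripts. The part of either in these values was not tested.

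The step from TRAP to ST differed between the lines for each of the 3 genes by the interaction term of the fit, at -1.92 for Kcnc1, -2.39 for Kcnc2 and 1.18 for Kcnc4 (log2, VGAT over RBP4). The genes may have been chosen from these values, so no p is given. Without RBP4 ST replicate 4 they were -1.62, -2.36 and 1.33.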

How the results depend on the processing

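The count of the 3 genes called was within 1.5 times its main value except as follows. In SNF over WCH of RBP4 it went from 2 to 1 with no genes left out (Kcnc2, edgeR adjusted p = 0.124), and was 1 to 2 when pools were left out. In ST over SNF of RBP4 it went from 1 to 2 with all 40 libraries in one fit and without RBP4 ST replicate 4 (Kcnc1), and was 1 to 2 over the pools left out. RBP4 ST replicate 4 was the highest of its group in Kcnc1. In ST over SNF of VGAT the called gene changed from Kcnc2 to Kcnc1 with no genes left out. In ST over SNF of VGAT it was 0 to 1, and in ST between lines 1 to 2, over the pools left out. A fit without a pool has fewer libraries.

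Some small differences that did not pass, or were given without a test, changed sign. Kcnc4 in ST over SNF of RBP4 was -0.040 without RBP4 ST replicate 4, and 0.047 to 0.15 over the pools left out. Kcnc1 in ST over TRAP of VGAT was -0.065 with no genes left out, and -0.061 to 0.11 over the pools left out. Kcnc4 in SNF over WCH between lines was -0.15 to 0.076 over the pools left out. Kcnc4 in ST over SNF between lines was -0.022 with DESeq2, -0.034 with TMM and -0.022 with DESeq2's size factors. The share of Kcnc2, SNF over WCH, was -0.843 points in VGAT with cpm not divided by length and -2.62 to 2.12 points in RBP4 over the pools left out. The cause was not tested. With cpm not divided by length, the share of Kcnc1 in SNF over WCH of RBP4 passed (7.21 points, exact permutation test, adjusted p = 0.0476). This adjustment also included the ST over TRAP shares. Paired by pool, no share passed, since 5 pairs allow no p below 0.0625.

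With the pool as a block, Kcnc4 passed in SNF over WCH of RBP4 (0.39, edgeR adjusted p = 0.0487), it was also called in ST over TRAP of RBP4, and the block changed no other call of the 3 genes in the fits within a line. Between lines, a block on the numbers, which no source ties together, gave 2 genes called in WCH and 64 in ST, against 2 and 55. Replicate 3 stood apart in both lines, with 40.2% and 41.9% of mitochondrial counts in SNF and 15.8% and 19.0% in ST. Scaling moves the split of all genes. In SNF over WCH, 2286 genes rose and 6161 fell in RBP4 (3284 and 3048 with TMM), and 3283 and 7680 in VGAT (4187 and 4747 with TMM). In TRAP over WCH the splits were 1427 and 5372 in RBP4 (3296 and 3815) and 3561 and 7106 in VGAT (4987 and 5530), and in ST over SNF of VGAT 2771 and 1905 (1987 and 2480). In ST between lines 45 were higher and 10 lower, against 61 and 77 with DESeq2. In SNF between lines 3 genes were called, and 16 without RBP4 replicate 2, and in ST over TRAP between lines 978 were higher, and 651 without VGAT replicate 2. The lowest count of the 3 genes in any library was 334.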
